A study of Mus musculus with 12 samples.

Results

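Genes for chromatin remodelling ATPases and for subunits of the BAF complex were followed in female germ cells from mouse embryos at embryonic day 13.5. The set holds every listed gene whose symbol starts with Smarc, Arid, Chd and a digit, or Ino80, together with Pbrm1, Actl6a, Bptf, Srcap, Ep400, Atrx, Brd7 and Brd9. These symbols matched 45 of the 12516 genes in the table, and Srcap was not analysed here. Each library comes from sorted Oct4-positive cells of 1 embryo. The strain background was C57BL/6 and the genotype Gulo-/- throughout, so all embryos lack the enzyme that completes vitamin C synthesis and depend on the vitamin C their mother eats. In 6 embryos the mother had been withdrawn from vitamin C in the first 2 weeks of gestation, and in 6 embryos the mother had received vitamin C at a physiological level. The labels do not say which embryos share a mother.

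Remodelling ATPases of the SNF2 family use ATP to slide, evict or exchange nucleosomes and so change which DNA other proteins can reach. The BAF complex (mammalian SWI/SNF) carries Smarca4 or Smarca2 as its motor, and its other subunits are chosen from small sets of paralogues, so that a cell can build many versions of it. ISWI remodellers space nucleosomes, CHD remodellers include the motor of the NuRD repressor complex, and the INO80 group exchanges histone variants. Female germ cells at this stage have lost most of their DNA methylation, and the Tet enzymes that take part in this loss use vitamin C as a cofactor.

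The BAF motor and the BAF scaffold are each encoded by a pair of paralogues. The RNA balance of both pairs differed between the diets in the test given below, but not under each alternative. Arid1a and Arid1b also differed in that test and are not shown here. For the motor and scaffold pairs, the stretches of 250 bases that lie just upstream of their RefSeq starts are shown. Build GRCm38.p6 was used for these sequences, all 4 lie on the plus strand, and capitals mark CpG dinucleotides, the sites of DNA methylation. Smarca2 is at chr19:26604910-26605159, Smarca4 at chr9:21615919-21616168, Smarcc2 at chr10:128458986-128459235 and Smarcc1 at chr9:110131774-110132023.
Smarca2: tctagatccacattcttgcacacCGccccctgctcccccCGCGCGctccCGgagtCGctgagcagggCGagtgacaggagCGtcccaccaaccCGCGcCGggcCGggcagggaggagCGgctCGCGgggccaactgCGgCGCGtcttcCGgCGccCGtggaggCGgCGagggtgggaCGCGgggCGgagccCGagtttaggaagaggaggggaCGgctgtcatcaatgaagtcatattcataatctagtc
Smarca4: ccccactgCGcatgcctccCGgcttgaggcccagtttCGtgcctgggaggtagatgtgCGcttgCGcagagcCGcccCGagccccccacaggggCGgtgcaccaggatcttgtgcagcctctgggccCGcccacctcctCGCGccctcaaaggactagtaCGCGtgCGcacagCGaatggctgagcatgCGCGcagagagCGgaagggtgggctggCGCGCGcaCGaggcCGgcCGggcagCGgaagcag
Smarcc2: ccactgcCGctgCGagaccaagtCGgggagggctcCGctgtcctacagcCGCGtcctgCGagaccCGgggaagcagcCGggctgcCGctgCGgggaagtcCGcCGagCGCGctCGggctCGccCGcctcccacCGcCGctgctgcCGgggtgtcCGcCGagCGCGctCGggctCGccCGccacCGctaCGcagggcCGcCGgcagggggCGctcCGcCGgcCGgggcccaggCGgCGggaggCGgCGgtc
Smarcc1: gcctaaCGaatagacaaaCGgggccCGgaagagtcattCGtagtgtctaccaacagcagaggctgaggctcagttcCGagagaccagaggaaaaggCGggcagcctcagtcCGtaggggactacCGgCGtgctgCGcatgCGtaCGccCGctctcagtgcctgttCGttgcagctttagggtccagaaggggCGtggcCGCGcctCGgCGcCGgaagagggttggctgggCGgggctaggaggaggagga

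These stretches hold 28 CpG for Smarca2, 25 for Smarca4, 40 for Smarcc2 and 21 for Smarcc1. The median was 21 CpG over the 42 promoters found for 34 of the 45 genes, and 6 over all 32851 promoters of the RefSeq table. The GC box GGGCGG, searched on both strands, occurred in 31 of these 42 promoters and in 32.7% of all promoters. It occurred 2 times in the Smarca2 stretch, 3 times in that of Smarca4, 1 time in that of Smarcc1 and not in that of Smarcc2. CCAAT was found in 11 of the 42, against 33.8% of all promoters, and CACGTG in 3 of the 42, against 6.02% of all, both strands searched. GGGCGG and CACGTG each contain a CpG, so they are not independent of the CpG count, and DNA methylation was not measured in the files used here. The RefSeq promoters were not limited to genes with expression values here. Whether the promoters of the set differ from those of other expressed genes was not tested.

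The deposited values are on a normalized log2 scale, with 1 value for each gene in each embryo, and sequencing depth is unknown. The lowest value in the table was 2.82 and library medians lay between 8.07 and 8.14. Of the 45 genes, 40 had a mean above that of the median gene (8.11), and 3 (Smarca1, Smarcd3 and Arid5a) had a mean below 6, where this scale can understate differences. Per kilobase of the longest annotated transcript, Chd4 had the highest level of the set, at 10.91 in withdrawn and 10.77 in supplied embryos, followed by Smarcc1 (10.46 and 10.47) and Smarca4 (10.23 and 10.20). Smarca1 had the lowest, at 2.44 in withdrawn and 2.54 in supplied embryos. Of 12 germ cell markers, 10 lay above the median gene, among them Ddx4, Dazl and Pou5f1. Pou5f1 encodes Oct4, for which the cells were sorted, so its level is not independent of the sort. None of 16 supporting cell markers and none of 4 macrophage markers did, but 1 of 6 mesenchymal (Fbln1), 1 of 7 endothelial (Pecam1) and 2 of 5 mesonephric markers (Epcam and Cdh1) did. Pecam1, Epcam and Cdh1 lay near the level of the germ cell markers, and which cells their RNA came from was not tested. Erythroid markers were not analysed here.

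Withdrawn and supplied embryos were compared with limma over all 12432 genes with a mean of at least log2 of 10, and all 45 remodelling genes passed that filter. Log2 fold changes are given as withdrawn minus supplied, SE is its moderated standard error, and a gene was called at a Benjamini-Hochberg adjusted p below 0.05 over all genes. In withdrawn embryos Smarca2, Smarcc2, Smarcd3, Chd7 and Chd6 fell and Smarcb1 and Arid5b rose, and the other 38 genes were not called. That is 7 of 45, or 15.6%, where 14.0% of all genes were called. The 2 higher genes compare with 6.22% of all genes and the 5 lower ones with 7.75%, so the set as a whole was called about as often as other genes. Its median log2 fold change was 0.02, against -0.01 over all genes, and 23 genes were positive and 22 negative. In bulk samples such as these, fewer cells of a type and less RNA per cell cannot be told apart. With the trend on transcript length and GC content removed, 6 genes were higher and 3 lower, and with quantile normalization 1 was higher and 8 lower. All 7 genes kept their sign in each alternative that tested them, but 0 were called without the 4 embryos of title number 4, where 49 of all genes were called, and 0 with somatic marker expression as a covariate, where 85 were. With embryos of the same number and diet averaged, only Smarcc2 was still called, and with number and diet as a random effect Smarcb1, Smarcd3 and Chd6 lost their calls. An exact permutation test per gene called none of the 7. After adjustment it called only the 558 genes whose groups did not overlap, at its smallest p of 0.00216. The groups of all 7 overlapped, so this test could not have called them and does not bear on their calls.

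**Figure D1:**
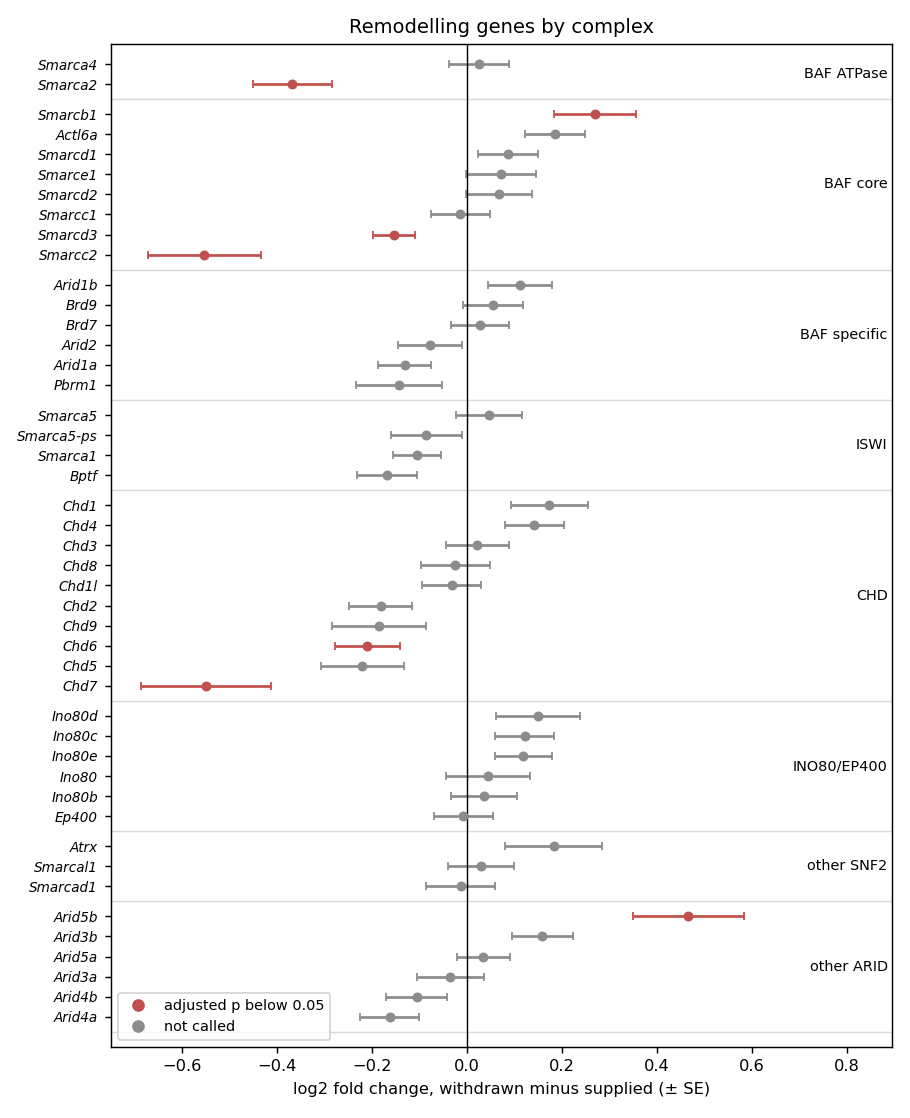
Log2 fold change (withdrawn minus supplied, points) with its SE (bars) for the 45 genes, grouped by complex, with the 7 called genes in red. Smarcc2 and Chd7 lie furthest below 0, at -0.55 each, and Arid5b furthest above it, at 0.47.

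Smarca2 (BRM), the ATPase that can replace Smarca4 as BAF motor, had values of 10.98, 11.33 and 11.52 (lowest, median, highest) in withdrawn embryos, against 11.50, 11.69 and 11.91 in supplied embryos. All 6 withdrawn embryos lay below the supplied mean, and only the highest withdrawn embryo reached the supplied range. It was 1.29-fold lower (log2 fold change -0.37, SE 0.08, adjusted p = 0.00821). Smarca4 (BRG1), the main motor in embryonic cells, had 12.70, 12.93 and 13.01 in withdrawn embryos and 12.78, 12.86 and 12.96 in supplied embryos. Its ranges overlapped almost wholly, and it was not called (0.03, SE 0.06, adjusted p = 0.819). Per kilobase of transcript, Smarca4 was the more abundant of the pair in both groups, and Smarca2 was at 8.75 in withdrawn and 9.11 in supplied embryos. The Smarca2 call held without each embryo in turn (adjusted p from 0.00292 to 0.0239) and was lost without title number 4 (-0.29, adjusted p = 0.119) and with averaged embryos (-0.33, adjusted p = 0.0520).

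Among the core BAF subunits, Smarcc2 (BAF170), which with Smarcc1 (BAF155) forms the scaffold of the complex, had 8.23, 8.71 and 8.89 in withdrawn embryos, against 8.75, 9.19 and 9.65 in supplied embryos. The lowest value was that of withdrawn replicate 5, and 1 supplied embryo, replicate 4, lay within the withdrawn range, below withdrawn replicates 2 and 6. Smarcc2 was 1.47-fold lower (log2 fold change -0.55, SE 0.12, adjusted p = 0.00597). Its partner Smarcc1 had a median of 13.01 in withdrawn and 12.97 in supplied embryos and was at -0.01 (adjusted p = 0.908). Smarcd3 (BAF60C), the variant known from heart and muscle, had 4.87, 4.91 and 5.0 in withdrawn embryos, against 4.98, 5.06 and 5.22 in supplied embryos. Only the lowest supplied embryo lay within the withdrawn range, below withdrawn replicates 3 and 5. Smarcd3 was called lower (-0.15, SE 0.04, adjusted p = 0.0240), at values near the bottom of the table. Its paralogues Smarcd1 (0.09) and Smarcd2 (0.07), both more abundant per kilobase, were not called.

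Smarcb1 (SNF5), the subunit that holds the nucleosome from the side opposite the motor, had 10.31, 10.64 and 10.82 in withdrawn embryos, against 10.17, 10.28 and 10.61 in supplied embryos. In supplied replicate 4 it was at 10.61, above 3 withdrawn embryos, while the other supplied values did not exceed 10.32. It was called higher (log2 fold change 0.27, SE 0.09, adjusted p = 0.0402). Actl6a (BAF53A), the actin-like subunit of dividing cells, was at 0.19 and just missed the threshold (adjusted p = 0.0518), with all 6 withdrawn embryos above the supplied mean. Actl6a was called higher in 6 of 32 alternatives, counting the threshold of 0.1. Among them were centring of the libraries on their medians (0.21, adjusted p = 0.0430, limma) and the fit without the variance trend (adjusted p = 0.0394). Smarce1 (BAF57), the HMG-box subunit, was at 0.07. Without title number 4, Smarcc2 was at -0.34 (adjusted p = 0.0905), Smarcd3 at -0.15 (adjusted p = 0.146) and Smarcb1 at 0.15 (adjusted p = 0.462). Smarcb1 also lost its call in 9 of 12 fits without 1 embryo (withdrawn replicates 1, 4, 5 and 6, supplied replicates 1, 2, 3, 5 and 6, adjusted p up to 0.101), and Smarcd3 in 4 (withdrawn replicates 4 and 6, supplied replicates 2 and 5, adjusted p up to 0.0727). Both lost their calls with quantile normalization (adjusted p = 0.0717 for Smarcb1 and 0.0721 for Smarcd3) and without the variance trend (0.0602 and 0.0560), and Smarcd3 also after removal of the length and GC trend (adjusted p = 0.103).

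**Figure D2:**
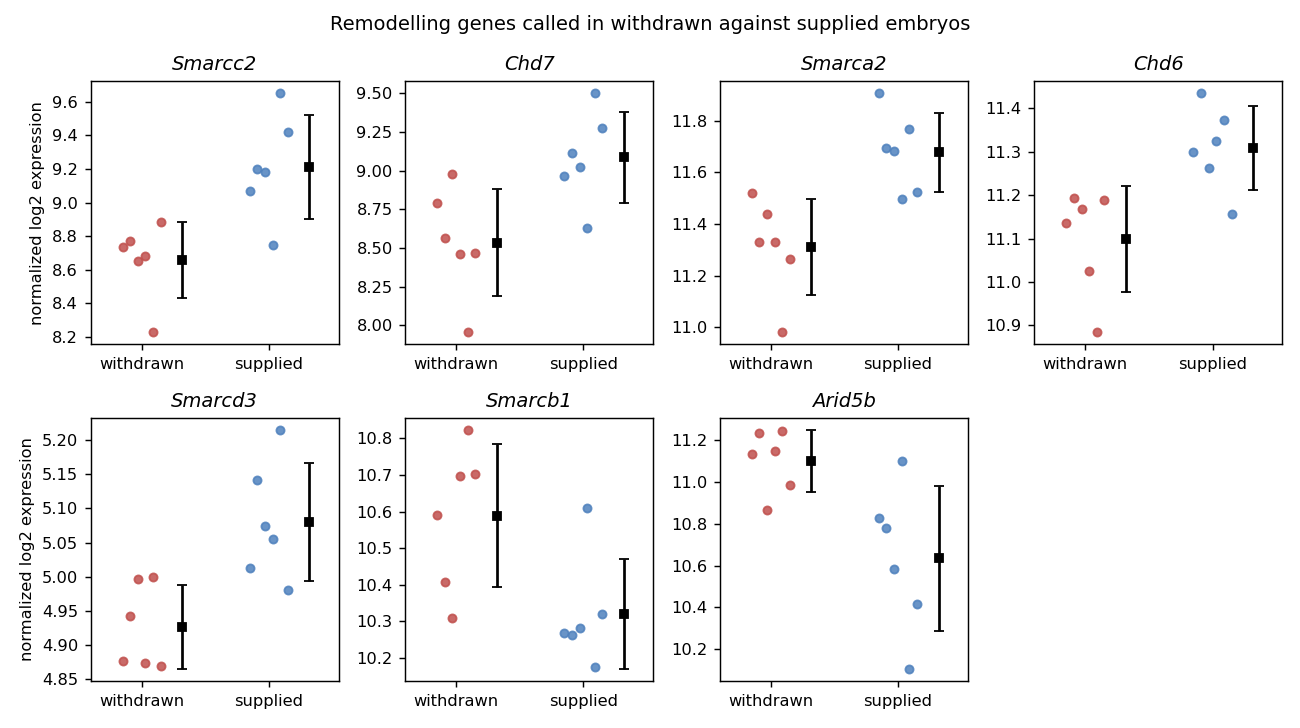
Normalized log2 expression of the 7 called genes in each embryo (points) with mean and SD (black squares and bars), withdrawn left and supplied right. Every panel shows some overlap of the groups, from nearly none in Smarca2 to 3 withdrawn embryos below the highest supplied embryo in Smarcb1. In Chd6 as many withdrawn embryos lie above the lowest supplied embryo.

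None of the 6 subunits that set the type of BAF complex was called, where 14.0% of all genes were. So few genes do not set the group apart from others. With quantile normalization Arid1a was called (-0.19, adjusted p = 0.0225, limma), and after removal of the length and GC trend Arid1b was (0.21). Arid1a (BAF250A) and Arid1b (BAF250B) are alternatives in canonical BAF. Arid1a had 12.71, 12.75 and 12.88 in withdrawn embryos, against 12.87, 12.89 and 12.98 in supplied embryos, with all 6 withdrawn embryos below the supplied mean (log2 fold change -0.13, SE 0.06, adjusted p = 0.118). Arid1b had 11.30, 11.38 and 11.44 in withdrawn embryos, against 11.10, 11.27 and 11.43 in supplied embryos (0.11, SE 0.07, adjusted p = 0.270). The PBAF subunits Pbrm1, a protein with several bromodomains, Arid2 and Brd7 were at -0.14, -0.08 and 0.03. Brd9, the bromodomain subunit of non-canonical BAF, was at 0.06.

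Whether paralogues responded differently was tested on the difference of their log2 values within each embryo, which removes a shift common to both genes. The exact log2 transformation is unknown, so the scaling of a library may not cancel where values are low, as for Smarca1. An exact two-sided permutation test over 924 arrangements of the embryos was used for 6 pairs, with adjustment over the pairs. The pairs were chosen with earlier results of these data known, so their p values are not independent evidence. Smarca4 minus Smarca2 was 1.59 ± 0.09 in withdrawn and 1.20 ± 0.11 in supplied embryos (SD, n = 6 each, exact p = 0.00216, the smallest possible, adjusted p = 0.00649). The groups did not overlap, with 1.49 to 1.71 in withdrawn and 1.06 to 1.34 in supplied embryos. Arid1a minus Arid1b was 1.41 ± 0.06 in withdrawn and 1.65 ± 0.16 in supplied embryos (exact p = 0.00216, adjusted p = 0.00649), again without overlap, with 1.29 to 1.45 in withdrawn and 1.46 to 1.87 in supplied embryos. Smarcc1 minus Smarcc2 was 4.32 ± 0.26 in withdrawn and 3.79 ± 0.37 in supplied embryos (exact p = 0.0130, adjusted p = 0.0260), with ranges that overlapped. Relative to their paralogues, Smarca2, Arid1a and Smarcc2 were thus each lower in withdrawn embryos.

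The other 3 pairs did not pass. Chd4 minus Chd3 differed by 0.12 between the diets (exact p = 0.0736, adjusted p = 0.110), Smarca5 minus Smarca1 by 0.15 (exact p = 0.136, adjusted p = 0.164) and Smarcd1 minus Smarcd2 by 0.02 (exact p = 0.874, adjusted p = 0.874). Without withdrawn replicate 4, Chd4 minus Chd3 (adjusted p = 0.0455, exact permutation test) and Smarca5 minus Smarca1 (adjusted p = 0.0468) did pass. Within embryos of the same title number, the Smarca4 minus Smarca2 difference was 0.35, 0.35, 0.33 and 0.49 for numbers 1 to 4. Arid1a minus Arid1b differed by -0.13, -0.45, -0.11 and -0.32, and Smarcc1 minus Smarcc2 by 0.29, 0.62, 0.02 and 1.00. Smarca4 minus Smarca2 and Arid1a minus Arid1b passed without each embryo in turn, and Smarcc1 minus Smarcc2 did not pass without withdrawn replicate 3, withdrawn replicate 5 or supplied replicate 5 (adjusted p = 0.0606, 0.0649 and 0.0519). Without title number 4, Smarca4 minus Smarca2 differed by 0.35, Arid1a minus Arid1b by -0.21 and Smarcc1 minus Smarcc2 by 0.31, each with an adjusted p of 0.0571 by the exact test. Without title number 1 the adjusted p was 0.0857 for Smarca4 minus Smarca2 and Arid1a minus Arid1b and 0.114 for Smarcc1 minus Smarcc2, which without number 2 had 0.0952. With embryos of the same number and diet averaged, all 3 of these pairs had an exact p of 0.0286, the smallest that 70 arrangements allow, and an adjusted p of 0.0571. The same smallest exact p holds without number 1 or 4. It stays below 0.05 after adjustment over 6 pairs only if at least 4 pairs reach it. In these 3 settings a pair could thus fail to pass even at its most extreme arrangement.

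**Figure D3:**
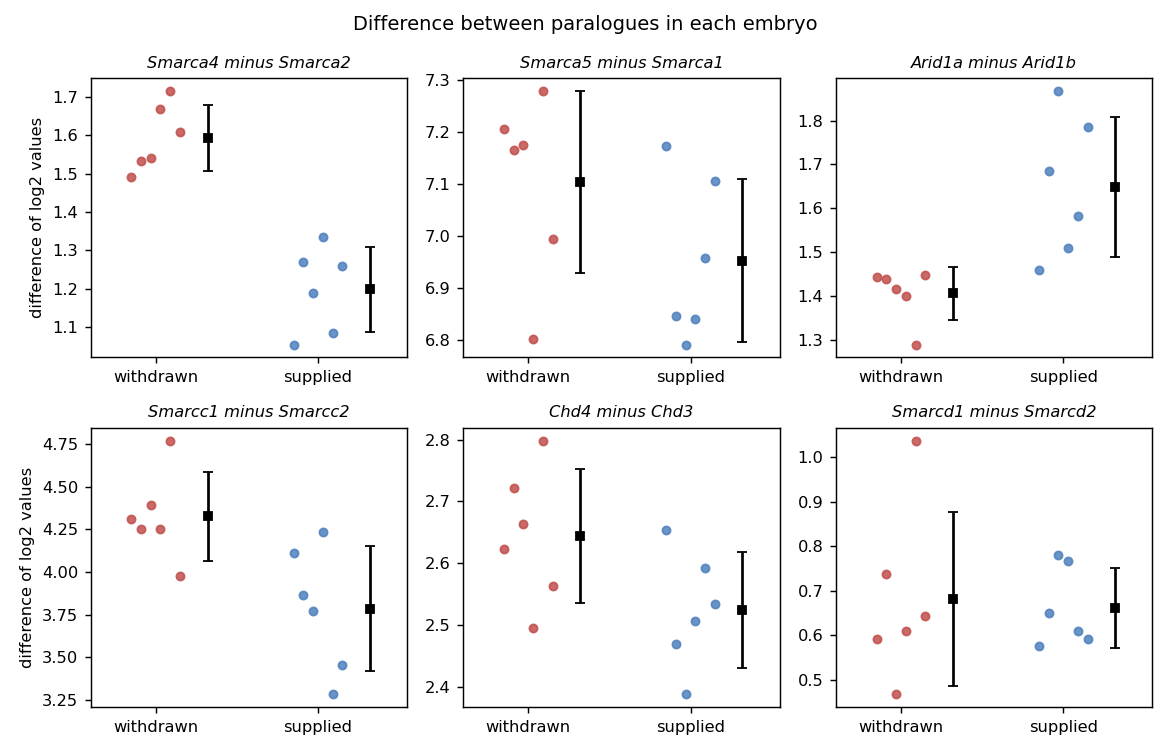
Difference of log2 values between paralogues in each embryo (points) with mean and SD (black squares and bars), withdrawn left and supplied right. For Smarca4 minus Smarca2 every withdrawn embryo lies above every supplied embryo, and for Arid1a minus Arid1b every withdrawn embryo lies below.

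Of the 10 CHD genes, 2 fell and none rose, beside 7.75% of all genes that fell, and 7 were negative, as were 53.4% of all genes. Chd7, a promoter and enhancer remodeller whose human gene is mutated in CHARGE syndrome, had 7.95, 8.51 and 8.98 in withdrawn embryos, against 8.63, 9.07 and 9.50 in supplied embryos. It was 1.46-fold lower (log2 fold change -0.55, SE 0.14, adjusted p = 0.0123), with all 6 withdrawn embryos below the supplied mean. Chd6, of the same subfamily, had 10.88, 11.15 and 11.19 in withdrawn embryos, against 11.16, 11.31 and 11.44 in supplied embryos (-0.21, SE 0.07, adjusted p = 0.0426). Only 1 supplied embryo reached the withdrawn range, but it lay below withdrawn replicates 2, 3 and 6. The other subfamily members Chd8, which binds beta-catenin, and Chd9 were at -0.02 and -0.19 and not called. With averaged embryos Chd7 was at -0.44 (adjusted p = 0.0924). Without title number 4, Chd7 was at -0.24 (adjusted p = 0.313) and Chd6 at -0.20 (adjusted p = 0.184). The Chd6 call was lost in 8 of 12 fits without 1 embryo (withdrawn replicates 1, 4, 5 and 6, supplied replicates 1, 2, 3 and 5, adjusted p up to 0.0988) and after removal of the length and GC trend (-0.12, adjusted p = 0.159).

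Chd2, which deposits the histone variant H3.3, had 10.11, 10.44 and 10.48 in withdrawn embryos, against 10.55, 10.57 and 10.60 in supplied embryos. It was 1 of 2 genes of the set whose groups did not overlap, where 4.49% of all genes were of that kind (2.34% lower, as Chd2, and 2.15% higher), but limma did not call it (-0.18, SE 0.07, adjusted p = 0.0706). The other was Ino80e, described with its complex. Chd1, which is needed for the open chromatin of pluripotent cells, was at 0.17 (adjusted p = 0.151). Chd4, the main motor of NuRD, had 13.59, 13.63 and 13.78 in withdrawn embryos, against 13.32, 13.49 and 13.68 in supplied embryos, with all 6 withdrawn embryos above the supplied mean but not called (0.14, SE 0.06, adjusted p = 0.127). Its alternatives in NuRD, Chd3 (0.02) and Chd5 (-0.22, adjusted p = 0.0966), and the poly(ADP-ribose)-activated Chd1l (-0.03) were not called. After removal of the length and GC trend, Chd1 (0.25) and Chd4 (0.20) were called higher, and with quantile normalization Chd2 was called lower (-0.21, adjusted p = 0.0443).

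Of the 4 ISWI genes, none was called, where 14.0% of all genes were. So few genes do not set the group apart from others. Smarca5 (SNF2H), the main ISWI motor of dividing cells, had 11.67, 11.84 and 11.91 in withdrawn embryos and 11.60, 11.77 and 11.96 in supplied embryos (log2 fold change 0.05, SE 0.07, adjusted p = 0.695). A listed pseudogene, Smarca5-ps, was at -0.09, and the counting may have split reads of the gene and this copy, so neither value is certain. Smarca1 (SNF2L), known mainly from the nervous system, had 4.63, 4.67 and 4.91 in withdrawn embryos and 4.64, 4.80 and 4.95 in supplied embryos (-0.10, SE 0.05, adjusted p = 0.162). Bptf, the subunit through which the NURF complex reads histone H3 methylated on lysine 4, averaged 12.22 ± 0.12 in withdrawn and 12.38 ± 0.07 in supplied embryos (SD, n = 6 each; -0.17, SE 0.06, adjusted p = 0.0786), and was called lower with quantile normalization (-0.23, adjusted p = 0.0182).

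Of the INO80 genes and Ep400, 5 of 6 were positive, as were 46.6% of all genes, and none was called, where 14.0% of all genes were. Ino80, the motor of the complex, had 9.97, 10.37 and 10.50 in withdrawn embryos and 10.04, 10.30 and 10.49 in supplied embryos (log2 fold change 0.04, SE 0.09, adjusted p = 0.779). The accessory subunit Ino80e had 8.57, 8.64 and 8.69 in withdrawn embryos, against 8.44, 8.53 and 8.56 in supplied embryos, and its groups did not overlap (0.12, SE 0.06, adjusted p = 0.188). Other accessory subunits were Ino80c at 0.12, Ino80d at 0.15 and Ino80b at 0.04. Ep400, the motor of the TIP60 complex, was at -0.01.

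Atrx, which with Daxx places H3.3 in heterochromatin, had 12.99, 13.29 and 13.42 in withdrawn embryos, against 12.64, 13.20 and 13.33 in supplied embryos. The supplied embryos were more spread than the withdrawn ones, and Atrx was not called (log2 fold change 0.18, SE 0.10, adjusted p = 0.233), except after removal of the length and GC trend (0.28). Smarcad1, which helps to keep heterochromatin through replication, and Smarcal1, an annealing helicase at stalled forks, were at -0.01 and 0.03.

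The symbol rule also took in ARID-domain genes outside BAF. Arid5b, a DNA-binding partner of the histone demethylase Phf2, had 10.86, 11.14 and 11.24 in withdrawn embryos, against 10.11, 10.68 and 11.10 in supplied embryos. It was 1.38-fold higher (log2 fold change 0.47, SE 0.12, adjusted p = 0.0123), with all 6 withdrawn embryos above the supplied mean. Supplied replicate 4 alone lay within the withdrawn range, above withdrawn replicates 3 and 6. Without title number 4 it was at 0.27 (adjusted p = 0.198), and with averaged embryos at 0.39 (adjusted p = 0.0900). Its relative Arid5a was at 0.03. Arid3a (-0.03) and Arid3b (0.16, adjusted p = 0.0986), which bind AT-rich DNA, and the Sin3 complex members Arid4a (-0.16, adjusted p = 0.0811) and Arid4b (-0.11) were not called. With quantile normalization Arid4a was called lower (-0.18, adjusted p = 0.0489).

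The title numbers, from 1 to 4, occur in both diets, and all 7 called genes had the same sign within each number. The calls were made on these same embryos, and 80.4% of all called genes had 1 sign in all 4 numbers, so this does not set the 7 apart. Within number 4 the differences were the largest for 5 of the 7, at -1.18 for Chd7, -0.98 for Smarcc2, 0.85 for Arid5b, -0.52 for Smarca2 and 0.52 for Smarcb1. The smallest differences of these 5 genes came from number 3 for Smarcc2 (-0.07), Arid5b (0.05) and Smarca2 (-0.17) and from number 2 for Chd7 (-0.05) and Smarcb1 (0.03), each with 1 embryo per diet. The differences were -0.20, -0.09, -0.30 and -0.23 for Chd6 and -0.17, -0.08, -0.18 and -0.16 for Smarcd3 (numbers 1 to 4), largest in number 3 for both. Of all 45 genes, 18 (40.0%) had 1 sign in all 4 numbers, beside 30.4% of all genes tested. On the first principal component of all genes, which held 45.5% of the variance, supplied replicate 4 (number 3) lay at 1.54, within the withdrawn range of 1.27 to 23.2. The ends of the component were both of number 4, withdrawn replicate 5 at 23.2 (next 9.49) and supplied replicate 5 at -18.3 (next -11.2). Without supplied replicate 4, 4 of the 45 genes were called higher and 6 lower, and 2315 of all genes were called.

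**Figure D4:**
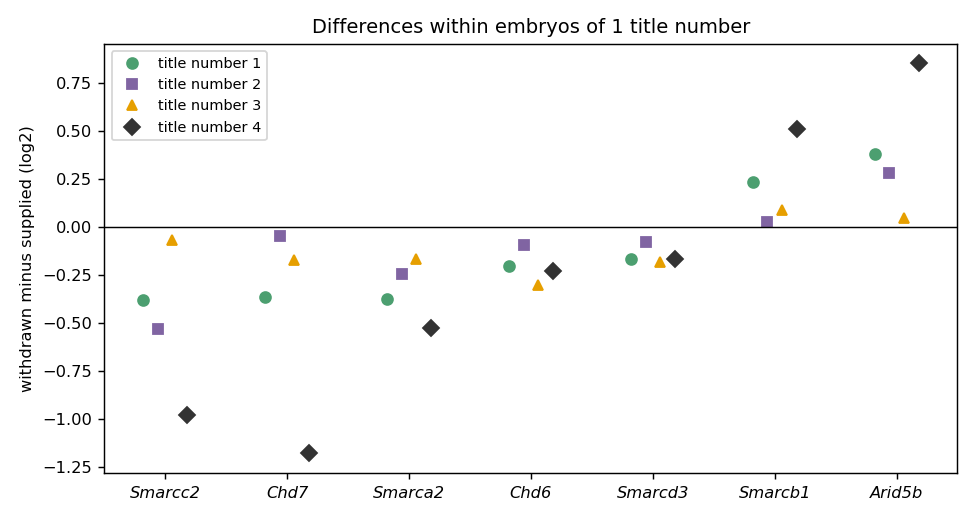
Withdrawn minus supplied difference (log2) of the 7 called genes among embryos that share a title number (1 and 4 with 2 embryos per diet, 2 and 3 with 1). All points of a gene lie on 1 side of 0, and number 4 (diamonds) lies furthest from 0 for Smarcc2, Chd7, Smarca2, Smarcb1 and Arid5b.

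Levels of some markers differed between the diets. The mean of the 12 germ cell markers ran from 10.92 to 10.96 in withdrawn and from 10.66 to 10.90 in supplied embryos. Of the 12, 7 were called higher (Pou5f1, Sox2, Tfap2c, Prdm1, Sall4, Dppa3 and Dnd1), beside 6.22% of all genes. Another 2 were called lower (Ddx4 at -0.34 and Dazl at -0.43), beside 7.75% of all genes. Single markers thus moved both ways, so the list mean does not measure the share of germ cells. The mean of the 38 somatic markers ran from 5.53 to 5.64 in withdrawn and from 5.57 to 5.73 in supplied embryos. All 15 supporting cell markers tested were negative, where 53.4% of all genes were. Of the 15, 2 were called, both lower (13.3%), where 14.0% of all genes were called and 7.75% called lower. The list mean ran from 4.99 to 5.15 in withdrawn and from 5.06 to 5.27 in supplied embryos, so the ranges overlapped. The 6 mesenchymal markers were all negative, 1 was called lower, and their mean ran from 5.98 to 6.10 in withdrawn and from 6.01 to 6.42 in supplied embryos. The other somatic lists went both ways. Positive were 4 of 5 mesonephric, 3 of 7 endothelial and 1 of 3 macrophage markers tested. In these 3 lists only Epcam was called, and it was higher (0.22, adjusted p = 0.0290, limma). Foxl2, which defines granulosa cells, was at 3.68 in withdrawn and 3.74 in supplied embryos, near the lowest values of the table. With the mean of the 38 somatic markers as a covariate, Smarca2 was at -0.37 (adjusted p = 0.0774), Smarcc2 at -0.54 (adjusted p = 0.0714), Chd7 at -0.54 (adjusted p = 0.103) and Arid5b at 0.46 (adjusted p = 0.106), so these 4 fold changes were nearly as large and the calls were lost. Smarcb1 was at 0.26 (adjusted p = 0.200), Chd6 at -0.17 (adjusted p = 0.291) and Smarcd3 at -0.11 (adjusted p = 0.276). The somatic mean includes Pecam1 (11.38 in withdrawn and 11.18 in supplied embryos), Epcam (11.24 and 11.02) and Cdh1 (10.69 and 10.63), which lay near the level of the germ cell markers. Without these 3, an alternative added after seeing the data, the mean ran from 5.05 to 5.16 in withdrawn and from 5.09 to 5.28 in supplied embryos. With it as the covariate, 0 of the 7 and 1 of all genes were called, and Smarca2 was at -0.38, Smarcc2 at -0.50, Chd7 at -0.51 and Arid5b at 0.40.

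Other subunits of the same complexes and further SNF2 helicases were taken as 69 genes in 5 lists, of which 8 rose and 3 fell. That is 15.9%, beside 14.0% of all genes, and the median log2 fold change was 0.05. Of 12 NuRD genes, the deacetylase Hdac1 (0.29, adjusted p = 0.00657), Mta2 (0.33, adjusted p = 0.0147) and Mbd3 (0.25, adjusted p = 0.0403) rose and none fell. Hdac1 averaged 10.75 ± 0.10 in withdrawn and 10.47 ± 0.06 in supplied embryos (SD, n = 6 each), without overlap. The histone-binding subunit Rbbp7 (-0.12, adjusted p = 0.188) was not called. Of 25 genes of the INO80, SRCAP and TIP60 complexes, 20 were positive, as were 46.6% of all genes, and 2 rose, a share below the 14.0% of all genes called, namely the paired AAA ATPases Ruvbl2 (0.49, SE 0.09, adjusted p = 0.00301) and Ruvbl1 (0.37, SE 0.09, adjusted p = 0.00901), which assemble these complexes. Nfrkb (-0.17) and Znhit1 (0.17), next by p, were not called.

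Of 12 further BAF genes, 2 rose and 2 fell. That is 33.3%, where 14.0% of all genes were called. In the ISWI list described below the share was 12.5%, and in that of the Atrx partner and other SNF2 helicases 8.33%. Whether these shares differ from that of all genes was not tested. Ss18, a BAF subunit fused to SSX genes in human synovial sarcoma, averaged 10.64 ± 0.19 in withdrawn and 10.24 ± 0.15 in supplied embryos (SD, n = 6 each; log2 fold change 0.40, SE 0.09, adjusted p = 0.00577), without overlap. Its paralogue Ss18l1 (CREST), which replaces it in BAF of neurons, averaged 7.77 ± 0.15 in withdrawn and 8.05 ± 0.11 in supplied embryos and fell (-0.28, SE 0.08, adjusted p = 0.0201). Bcl7c (0.30, adjusted p = 0.0318) rose, and Phf10 (-0.22, adjusted p = 0.0470), a PBAF subunit, fell. Among 8 ISWI partners, Baz1a (ACF1), which pairs with Smarca5, averaged 8.02 ± 0.42 in withdrawn and 8.73 ± 0.38 in supplied embryos and was called lower (-0.70, SE 0.16, adjusted p = 0.00901). Its relatives Baz2b (0.25, adjusted p = 0.0592) and Baz2a (0.17) and the histone-fold subunit Pole3 (0.23, adjusted p = 0.0568) were not. Of 12 genes in the list of the Atrx partner and other SNF2 helicases, the mitotic helicase Ercc6l (0.20, adjusted p = 0.0251) rose, while Hells (-0.23, adjusted p = 0.127), Shprh (-0.18) and Rad54l2 (-0.12) were not called. None of these 11 calls held without title number 4, where all kept their sign but 8 were smaller by over 1.5 times. Baz1a was then at -0.35, Mta2 at 0.18, Ss18 at 0.23, Ruvbl1 at 0.21, Bcl7c at 0.17, Phf10 at -0.13, Ss18l1 at -0.18 and Ruvbl2 at 0.33, while Hdac1 was at 0.20, Mbd3 at 0.17 and Ercc6l at 0.19. Calls were also lost without 1 embryo for Phf10 (10 of 12 fits), Mbd3 (8), Bcl7c (5), Ercc6l (2, withdrawn replicate 1 and supplied replicate 5) and Ss18l1 (1, supplied replicate 5).

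**Figure D5:**
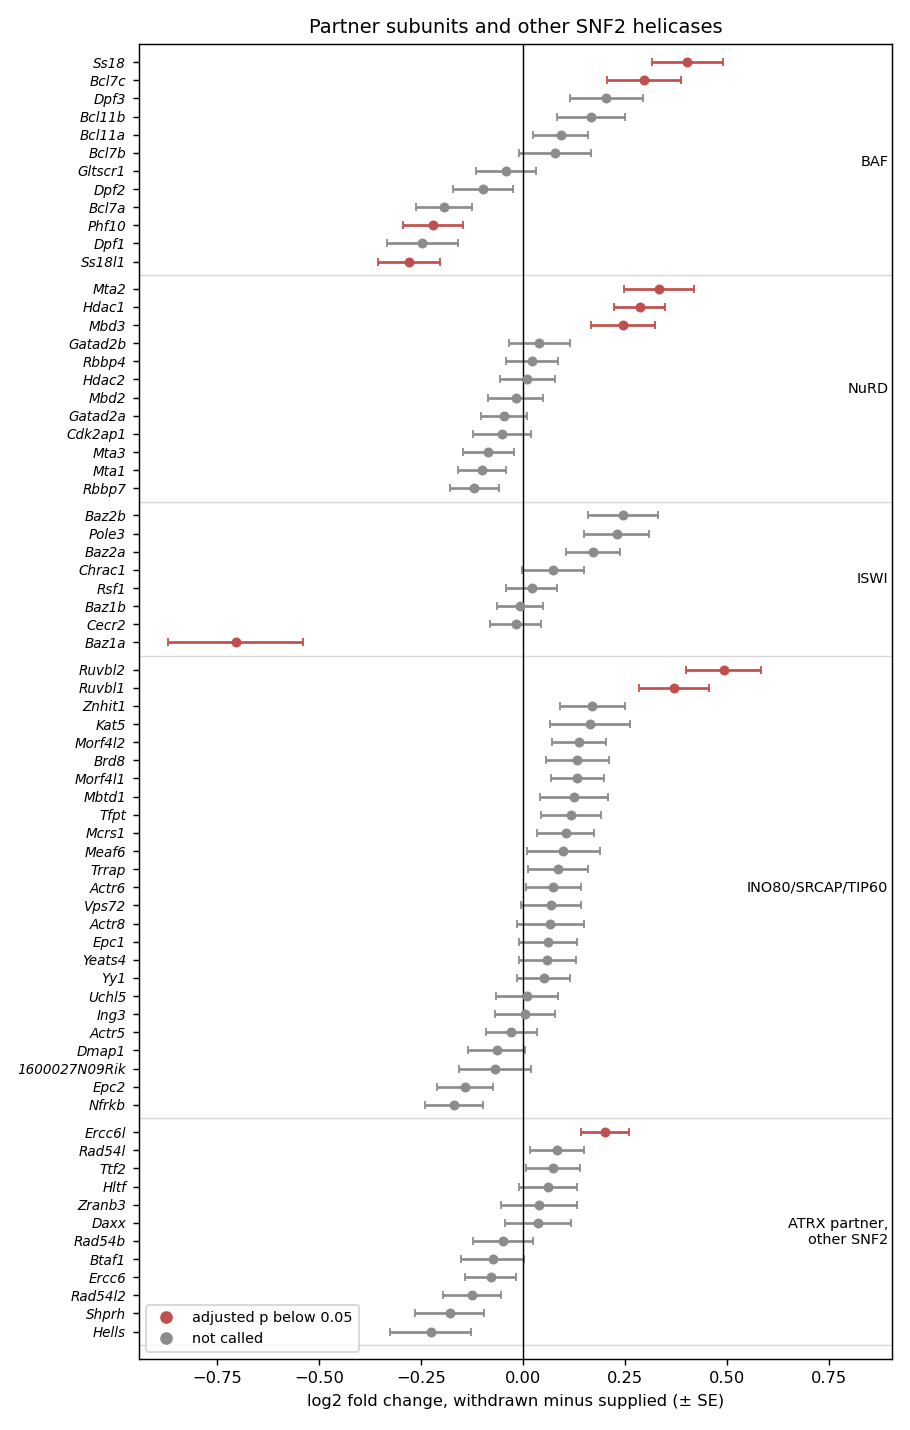
Log2 fold change (withdrawn minus supplied, points) with its SE (bars) for the 69 partner genes in 5 lists, with the 11 called genes in red. Baz1a lies lowest, at -0.70, and Ruvbl2 highest, at 0.49.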

How the data were processed

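The authors deposited 1 table of normalized log2 expression values with 1 column for each of 12 embryos. Software is listed per the submitters' processing notes as TopHat2 2.0.13 and Trim Galore 0.4.0, beside DESeq2 1.10.1, FastQC and genome build mm9. Which step each tool served, the annotation and the exact log2 transformation were not given in the sources used here. Depth is therefore unknown, no counting interval is given, and no count test was run. Genes with a mean of at least log2 of 10 (12432) were fitted with limma 3.58.1 in R 4.3.3, with a variance trend, tested on simulated data first. Single genes were named if called, as motors of a complex (Smarca4, Smarca2, Smarca5, Smarca1, Chd4, Ino80 and Atrx) or, in the partner lists, as called genes and those among the 4 smallest p values of their list, and every member could be named. Older symbols in the table were matched through RefSeq synonyms. The members, lists and pairs were chosen with earlier results of these data known. Replicates are numbered within a diet in sample order. P values treat embryos as independent, which embryos of 1 litter would not be. The alternatives changed the filter, scaling, variance model, weights, blocking, covariate, test, threshold and embryos used (statmod 1.5.0 for the random effect). Transcript length and GC content came from GENCODE M21, matched for 99.0% of genes and all 45 members, and promoters from RefSeq (GRCm38.p6). No coordinates of the authors' build were used.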

Additional observations from a re-analysis of the deposited data

Results flagged for a closer look

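In 102 groups of 6 values (45 genes and 6 paralogue pairs in each diet), 12 held an embryo far from the others, where chance flags about 1 in 20. Withdrawn replicate 5 was that embryo for Smarcc2 (lowest, at 8.23), Chd2 (lowest, 10.11), Ino80 (lowest, 9.97), Ino80b (highest, 6.95), Smarce1 (highest, 10.48) and Arid1a minus Arid1b (lowest, 1.29). Other withdrawn embryos so placed were replicate 2 for Arid5a (lowest, 5.71), replicate 3 for Smarcd1 (lowest, 10.50) and replicate 4 for Smarca1 (highest, 4.91). Among supplied embryos, replicate 4 was the highest for Smarcb1 (10.61) and Smarcal1 (10.24), and replicate 1 the highest for Smarca5-ps (9.85). The Smarcc2 fold change stayed called without each embryo in turn (-0.65 to -0.46).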

How the results depend on the processing

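The 7 called members and 11 called partner genes kept their sign under each alternative that tested them; Smarcd3 was not tested at a mean of at least 6. In the fit reported, 2 members were higher and 5 lower, 1737 of all genes and 11 partner genes were called, the groups of 558 genes did not overlap, and 3 paralogue pairs passed. Quantile normalization gave 1 member higher and 8 lower, and removal of the length and GC trend gave 6 higher and 3 lower. With title number and diet as a random effect, 1 was higher and 3 lower, with 886 genes and 7 partners called. With embryos of the same number and diet averaged, 0 were higher and 1 lower, Smarcc2 (298 genes, 3 partners). The somatic marker covariate left 0 higher and 0 lower (85 genes, 1 partner), and without Pecam1, Epcam and Cdh1 in it, chosen after seeing the data, 0 and 0 (1 gene, 0 partners). An exact permutation test per gene gave 1 higher and 1 lower (558 genes, 3 partners), Ino80e and Chd2. After adjustment it could call only genes whose groups did not overlap, so it could not call the 7. An adjusted p below 0.01 gave 0 higher and 2 lower (444 genes, 5 partners), and one below 0.1 gave 4 higher and 9 lower (2723 genes). Without title number 1, 1 member was higher and 3 lower (729 genes, 6 partners, 1446 genes without overlap, 0 pairs). Without number 2, 998 genes did not overlap. Without number 3, 4 members were higher and 1363 genes did not overlap. Without number 4, 0 were higher and 0 lower (49 genes, 0 partners, 1037 without overlap, 0 pairs). With 4 against 4 embryos, as without number 1 or 4, the smallest exact p is 0.0286, which stays below 0.05 after adjustment over 6 pairs only if at least 4 pairs reach it. The cause of the other shifts was not tested. Leaving out 1 embryo gave 1 to 4 members higher, 3 to 6 lower, 808 to 2315 genes, 6 to 16 partners, 583 to 1215 genes without overlap, and 2 to 5 pairs. With the title number as a replicate block, 3 members were higher and 6 lower, with 2062 genes and 16 partners called. The deviations of same-numbered embryos correlated at 0.31, -0.04, 0.21 and -0.22 for numbers 1 to 4, so the numbers are not read as pairs. Unknown depth leaves the precision of single low values unknown.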
